A study of Zea mays with 2 samples.

Results

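Long gaps without any methylation peak are the longest stretches of the maize chromosomes in which neither embryo nor endosperm had a methylation peak. They were chosen by the positions of the deposited peaks: the peaks of both tissues on chromosomes 1 to 10 were pooled, and a long gap was counted wherever at least 40000 bp lay between the end of one peak or group of overlapping peaks and the start of the next. Of 379656 intervals between successive peaks, 1067 were long gaps, which is 0.281% of the intervals. The number and length of the gaps follow from this choice and are given as a description.

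The study profiled DNA methylation by MeDIP-seq in 1 embryo and 1 endosperm library of the maize inbred line B73, both from ears taken 14 days after self-pollination. MeDIP-seq enriches methylated fragments of sheared DNA with an antibody to 5-methylcytidine and sequences them, and a peak is a stretch where the reads pile up above the background. The pull-down gives no state of single cytosines, and the DNA of whole embryos and whole endosperms mixes their cell types. With 1 library per tissue there is no replicate, so no test between tissues was made, and the ranges in parentheses are 95% intervals that cover counting error only.

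On chromosomes 1 to 10 the lists held 351748 embryo and 114577 endosperm peaks, which joined into 379666 separate regions. The lists give no reads, so the depth behind a peak is unknown from them, and whether a gap lacked mapped reads or assembled sequence was not tested. A gap is therefore a place without a called peak, and it was not shown to be free of methylated cytosines. Positions are counted from 1 on the chromosomes of the lists. The genome build is not given in the sources used here, so no gene or sequence was assigned to a gap.

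In plants, cytosines are methylated in the CG, CHG and CHH contexts, and the densest methylation lies on transposable elements, where it keeps them silent. In maize most of the genome consists of transposable elements, mainly retrotransposons, with genes lying singly or in small islands among them. Genes are more frequent toward the chromosome ends, and the surroundings of the centromeres are rich in retrotransposons. The endosperm, which feeds the embryo, loses methylation at many maternal loci through DNA glycosylases of the DEMETER family.

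The 1067 long gaps together spanned 51.8 Mb, or 2.52% of the 2059 Mb between the chromosome starts and the last peaks. Their median length was 45970 bp, with quartiles of 42342 and 51747 bp, against a median of 3006 bp for all intervals. Most of them were near the minimum, as 730 were under 50000 bp and 228 were from there to 60000 bp. Another 99 were from 60000 bp to 80000 bp long, 8 were from 80000 to 100000 bp and 2 were longer still. The minimum itself fell in a smooth part of the lengths, with 135 gaps from 40000 to 41000 bp and 137 intervals from 39000 to 40000 bp. The 3 shortest gaps measured 40004 bp on chromosome 1, 40013 bp on chromosome 6 and 40030 bp on chromosome 4. The 3 longest intervals left out measured 39990 bp on chromosome 2, 39972 bp on chromosome 10 and 39971 bp on chromosome 3.

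The longest gap lay on chromosome 7 from 5387475 to 5511495 and measured 124021 bp. Its left border was an embryo peak of 180 bp with a diffScore of 78.9, and its right border was an embryo peak of 243 bp with a diffScore of 103.8. The diffScore, which MACS derives from the p-value of the peak, is at least 50 in both lists. The second longest gap lay on chromosome 2 from 228493245 to 228595180 and measured 101936 bp, between embryo peaks with diffScores of 146.2 on the left and 55.8 on the right. Both of these gaps lay near an end of their chromosome, 5.45 and 8.51 Mb from it.

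The third in length, 89450 bp on chromosome 8 from 3554338 to 3643787, was bordered by an embryo peak with a diffScore of 51.8 on the left and by an endosperm peak with a diffScore of 55.1 on the right. In the embryo list alone this gap was 100884 bp long, so the endosperm peak shortened it. The gap of 85472 bp on chromosome 3 from 199024573 to 199110044 had an embryo peak with a diffScore of 78.1 on the left. On its right lay overlapping peaks of both tissues, with diffScores of 75.8 in embryo and 100.3 in endosperm. The fifth gap in length, 83266 bp on chromosome 8 from 158964260 to 159047525, lay between embryo peaks with diffScores of 283.9 on the left and 52.0 on the right. Border peaks of the longest gaps thus ran from just above the lowest diffScore to strong peaks.

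The next gaps in length lay on chromosomes 9, 6 and 1 and were similar to each other. On chromosome 9 they measured 82263 bp from 31954879 and 81606 bp from 76637777. On chromosome 6 they measured 81800 bp from 4819121 and 81472 bp from 58190107. The tenth in length, 81441 bp, was the longest of chromosome 1 and lay from 11928307 to 12009747. Of the 10 longest gaps, 3 lay farther inside than the outer 20% of a chromosome, the one at 58190107 of chromosome 6 (34.4% of its span) and both of chromosome 9 (20.4% and 48.9%).

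On the other chromosomes the longest gap was shorter. It measured 77263 bp on chromosome 4 from 139501949 to 139579211, and 75621 bp on chromosome 5 from 741408 to 817028. On chromosome 10 it measured 69490 bp from 64806017 to 64875506. The gap on chromosome 5 lay 0.779 Mb from the chromosome end, and that on chromosome 10 had the strongest endosperm border peak of all gaps, described with the border peaks.

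The 1067 long gaps were 7.06 times the 151.1 that the formula for the spacings of random points gives if the same number of regions is placed evenly at random along each chromosome. The excess grew with length. At a minimum of 10000 bp the intervals numbered 55328 against 53571 by the formula, a ratio of 1.03. At 20000 bp there were 12871 against 7565, a ratio of 1.70, and at 60000 bp 109 against 3.03, a ratio of 36.0. The formula is a reference for random placement and not a test, since neighbouring peaks are not independent.

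The excess was smaller against a formula that follows the local density of peaks. The 1067 long gaps were 5.61 times the 190.3 given with the density of each window of 5 Mb, and 4.43 times the 240.8 given with windows of 1 Mb. The windows hold the gaps themselves, so their density is not independent of the gaps.

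**Figure D1:**
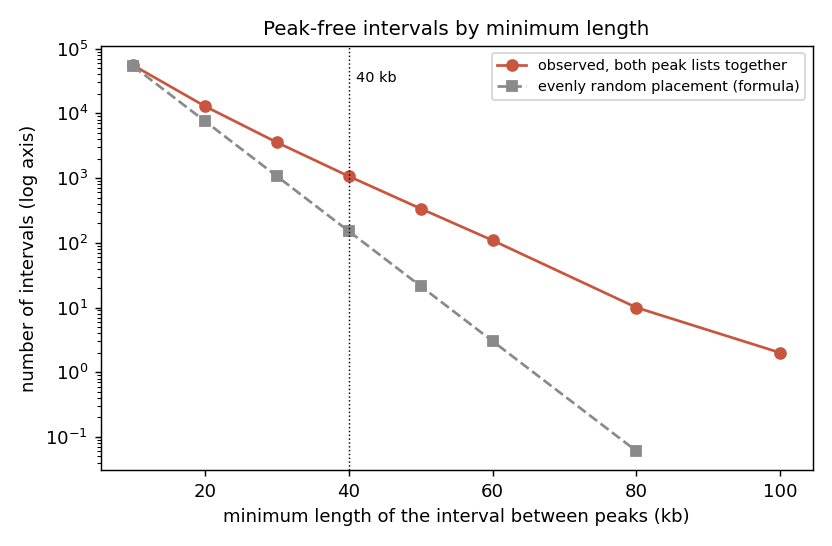
Number of intervals between successive peaks (y axis, log scale) of at least the length on the x axis (kb). Circles are the observed intervals of the 10 chromosomes and squares the numbers the formula gives for evenly random placement along each chromosome. At 10 kb the lines meet (55328 and 53571), at 40 kb they stand at 1067 and 151.1, and at 60 kb at 109 and 3.03. No square is drawn at 100 kb, where 2 intervals were observed.

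All 10 chromosomes had more long gaps than random placement gives. The ratio was lowest on chromosome 4, 5.97, and highest on chromosome 1, 7.99. Chromosome 1, the longest, had the most gaps, 178 against 22.3 by the formula. Per 100 Mb, chromosome 3 had the most, 62.0 (95% Poisson interval 52.3 to 73.0), followed by chromosome 1 with 59.1 (50.7 to 68.4) and chromosome 2 with 57.8 (48.5 to 68.3). Chromosome 4 had the fewest, 35.6 (28.5 to 44.0), followed by chromosome 7 with 44.1 (34.9 to 55.1). The intervals of chromosomes 3 and 4 do not overlap, and those of all neighbours in this order do. Chromosome 4 also had the highest density of peak regions, 189.6 per Mb against 180.8 on chromosome 2, which had the lowest. The gaps took up 1.68% of chromosome 4 and 3.01% of chromosome 3.

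**Figure D2:**
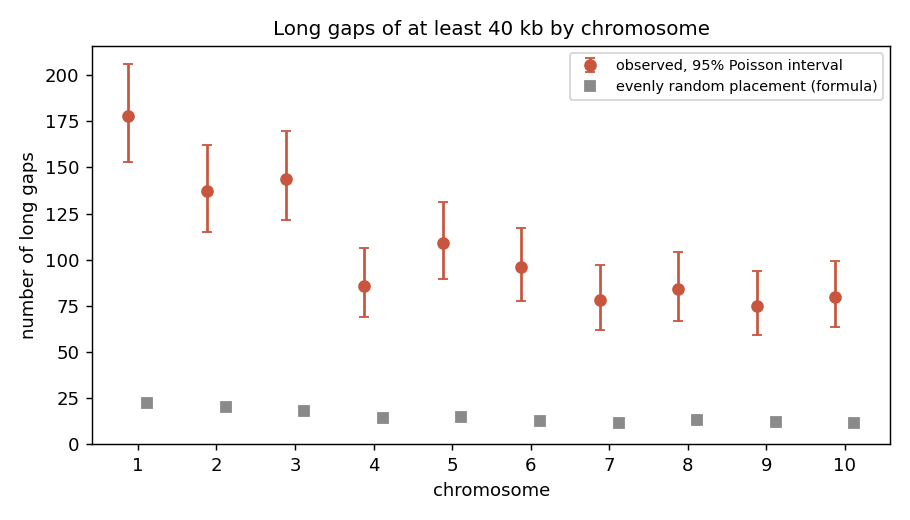
Number of long gaps (y axis) on each chromosome (x axis). Circles are the observed numbers with 95% Poisson intervals, and squares the numbers given by the formula for evenly random placement. Chromosome 1 has 178 gaps and chromosome 9 has 75, and every circle lies far above its square, which run from 11.6 to 22.3.

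Long gaps were most frequent per Mb in the first and last parts of the chromosomes, and more so on the right side than on the left. With each chromosome cut into 10 equal parts, there were 75.3 long gaps per 100 Mb in the first part (63.9 to 88.1) and 95.2 in the last (82.4 to 109.5). The parts numbered 4 and 5, left of the middle, had 20.9 (15.1 to 28.1) and 17.0 (11.8 to 23.6). The outer 2 parts on each side together held 600 of the 1067 long gaps (56.2%, 95% Wilson interval 53.2 to 59.2) but 38.0% of all intervals. With 3 equal parts, the central one held 218 long gaps (20.4%, 18.1 to 23.0) against 35.0% of all intervals. The right one held 502 (47.0%, 44.07 to 50.05) against 31.6%, and the left one 347 (32.5%, 29.8 to 35.4) against 33.4%, so by 3 parts only the right one held more than its share of intervals. On all 10 chromosomes the outer 2 parts on each side had more long gaps per Mb than the 2 parts in the middle.

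By distance from the nearer chromosome end, with both sides pooled, gaps were also most frequent near the ends. Within 5 Mb of an end there were 97 long gaps, or 97.0 per 100 Mb (78.7 to 118.3). From 20 to 40 Mb there were 56.0 per 100 Mb (48.9 to 63.8), and beyond 80 Mb 27.8 (23.2 to 33.0). Chromosomes 9 and 10 are too short to hold such positions. The first long gap of a chromosome began between 514 kb (chromosome 6) and 6402 kb (chromosome 4) after its first peak, and the last ended between 314.7 kb (chromosome 9) and 2423 kb (chromosome 6) before the end of its last peak.

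Typical spacing hardly changed along the chromosome, whereas the long tail did. The median interval was 2913 bp in the first part, 3045 bp in the fifth and 3036 bp in the last. The mean interval was 5299, 4605 and 5732 bp there, and 0.423%, 0.0838% and 0.576% of the intervals were long gaps. Relative to random placement at the density of each part, the number of long gaps was 7.14 times as large in the first part, 4.04 times in the fifth and 6.07 times in the last. The SD of the intervals was 1.29, 1.10 and 1.28 times their mean in these 3 parts, so the spacing was more uneven near the ends at nearly the same median.

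**Figure D3:**
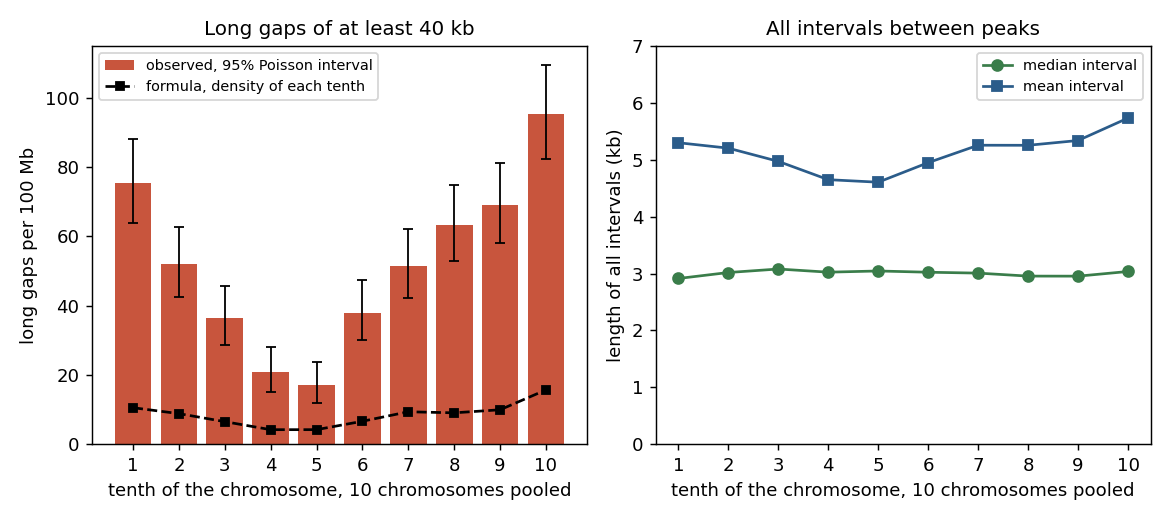
Left: long gaps per 100 Mb (y axis) in each of 10 equal parts of the chromosome (x axis, 10 chromosomes pooled), with 95% Poisson intervals. Squares show the formula at the density of each part. Right: median (circles) and mean (squares) length of all intervals in kb. The bars fall to 17.0 in the fifth part and reach 95.2 in the last, while the median interval stays close to 3 kb.

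Each chromosome had a long stretch without any long gap, and the midpoint of the longest lay between 28.4% and 47.7% of its span, left of the middle on all 10. The longest was 54.0 Mb on chromosome 7, from 31318505 to 85332199, which is 17.7% to 48.3% of its span. It held 11423 intervals, of which the longest was 38480 bp and 31 were at least 30000 bp. At the average rate of chromosome 7, as many intervals would hold 27.0 long gaps. The stretches on chromosome 4 (32.4 Mb, from 92732723 to 125118512) and chromosome 1 (30.3 Mb, from 117896651 to 148239858) came next. The shortest of these stretches, 9.20 Mb, was on chromosome 6. Peak regions were denser in these stretches than over the chromosome, with 224.0 per Mb against 184.0 on chromosome 1, and 211.5 against 187.0 on chromosome 7. The stretches were picked for their lack of gaps, so this is a description.

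Long gaps also lay near each other. Of the 1067, 788 (73.9%, 71.1 to 76.4) had another within 1 Mb, against 65.0% for gaps spread evenly along each chromosome and 71.2% for gaps spread evenly within each of its 10 parts. Both of these references count each gap among its own neighbours, which raises them. The value of 71.2% lies barely above the lower limit of the interval. The values at 1 Mb therefore cannot decide whether gaps group beyond what the 10 parts give. The grouping was plainer at short range. Within 100 kb of another were 186 (17.4%, 15.3 to 19.8), against 10.1% and 12.9%. Of the windows of 1 Mb, 1276 had no long gap, 551 had 1 and 42 had 3, against 1223, 634.1 and 28.4 for an even spread. That even spread uses a single rate for all windows, so it does not allow for position along the chromosome. The window with the most, 6 gaps, lay on chromosome 1 from 54 to 55 Mb.

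The interval next to a long gap, beyond its border region, was more often long than other intervals. Of the 2134 such intervals, 148 (6.94%, 5.93 to 8.09) were at least 20000 bp, against 3.39% of all intervals and 3.90% after weighting the 10 parts of the chromosome as the gaps lie. Their median was 3211 bp (3032 to 3572) against 3006 bp for all. In 9 places 2 long gaps lay side by side with a single region between them, against 3.08 places if long gaps followed each other at random along a chromosome, and 4.32 with the rates of its 10 parts. No counting interval was computed for these few places, so an excess over 4.32 beyond counting error is not shown. The longest such stretch covered 133.9 kb of chromosome 1 from 36398547 to 36532425, broken by 1 embryo peak of 187 bp with a diffScore of 50.3. The next, on chromosome 5 from 199956356 to 200065278, was broken by 1 embryo peak with a diffScore of 71.8. That on chromosome 3 from 140363385 to 140464514 was broken by an endosperm peak with a diffScore of 109.1 and no embryo peak. Of the 9 separating regions, 8 held an embryo peak, with diffScores between 50.3 and 245.1 and a median of 67.3. These places were chosen after their values were seen.

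When gaps less than 1 Mb apart were put into one group, 279 gaps stood alone and the others formed groups of up to 13. Group sizes for randomly placed gaps were not computed. The largest group lay near the right end of chromosome 6 from 156367125 to 163841103, with 13 gaps that took up 8.68% of 7474 kb. Its longest members were 76556 bp from 160639389, 63162 bp from 161409727, 57220 bp from 162651308, 55263 bp from 161733215 and 52566 bp from 157844050. The next 5 were between 42033 and 48549 bp. Within the group, 2 of these 10 gaps had an endosperm peak alone on one side, and the peaks from 163798657 and from 163841104, on both sides of the gap that starts at 163799071, were shared by both tissues. The groups that followed, of 11 gaps each, lay on chromosome 1 from 2837998 to 6892888 and on chromosome 3 from 178941990 to 184760841.

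Around the gaps the peaks were slightly thinner. In the 100 kb beyond the border region on each side there were 16.5 regions per 100 kb, against 18.4 over the same chromosomes and 17.7 over the 10 parts in which the gaps lie. Embryo had 15.3 peaks per 100 kb there against 17.1, and endosperm 4.96 against 5.56, so the ratio to the chromosome mean was nearly the same in both tissues, 0.897 in embryo and 0.892 in endosperm. The nearest 10 kb of these flanks had 17.4 regions per 100 kb. Farther out, from 500 to 1000 kb, the ratios to the chromosome mean were 0.955 and 0.963. Embryo had 16.3 peaks per 100 kb in that outer zone and endosperm 5.35. Over the 10 parts in which the gaps lie, the means were close to these, 16.4 and 5.40. The ratio of embryo to endosperm peaks was 3.09 in the first 100 kb and 3.04 in that outer zone.

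Whether the tissues avoid the same places can be asked only with the list that did not define the gap. The embryo list alone had 1353 gaps of at least 40000 bp, and the endosperm list was not used to find them. In these embryo gaps, at least 1 kb from either edge, there were 7.82 endosperm peaks per Mb (95% Poisson interval 7.15 to 8.54), against 12.4 (12.2 to 12.6) in all embryo intervals of at least 5 kb. The number was lower in each longer class of embryo intervals. Intervals of 5 to 10 kb had 13.8 endosperm peaks per Mb, those of 10 to 20 kb 12.95, those of 20 to 40 kb 10.7, those of 40 to 60 kb 8.12 (7.38 to 8.93), and those of 60 kb or more 6.20 (4.77 to 7.94). So endosperm peaks were rarer per Mb in longer embryo intervals, although the intervals of the last 2 classes overlap.

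Embryo peaks were also rarer per Mb in the longest endosperm intervals. The size of this fall cannot be set against that in embryo intervals. A given length is a different multiple of the mean interval in each list, 5534 bp in embryo and 17714 bp in endosperm. Endosperm intervals of 5 to 10 kb had 136.3 embryo peaks per Mb (134.1 to 138.5), those of 10 to 20 kb had 138.0 (136.6 to 139.3), and endosperm gaps of 60 kb or more had 116.4 (115.3 to 117.4). Neighbouring peaks are not independent, and these ranges do not allow for that. Of the embryo gaps 53.7% lay in the outer 20% of the chromosome on either side, and the part of chromosome position in these values was not tested.

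**Figure D4:**
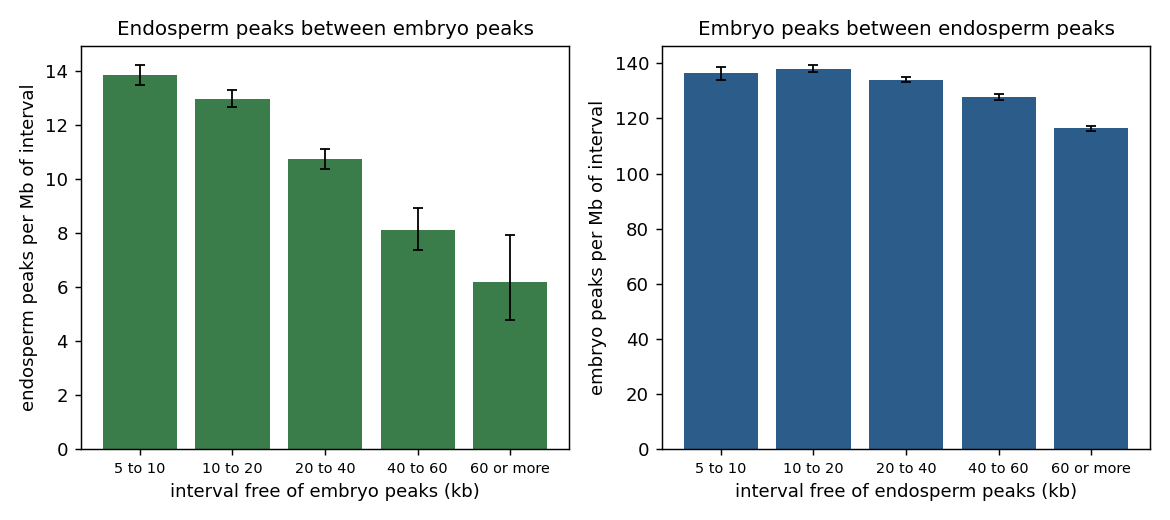
Left: endosperm peaks per Mb (y axis) inside intervals free of embryo peaks, by the length of the interval in kb (x axis). Right: embryo peaks per Mb inside intervals free of endosperm peaks. Bars carry 95% Poisson intervals and peaks within 1 kb of an edge are left out. Endosperm peaks fall to 6.20 per Mb in the longest embryo intervals, against 13.8 in the shortest class, and embryo peaks to 116.4 against 136.3.

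Of the 1353 embryo gaps, 825 were also gaps of both tissues with the same limits, and in 94 more an endosperm peak only reached inward over a border peak. The other 434 (32.1%, 29.6 to 34.6) held at least 1 endosperm peak, 343 of them a single one. These peaks left a shorter long gap in 147 of the 434 and none in 287. The 552 endosperm peaks inside embryo gaps were weak, with a median diffScore of 58.7 against 67.3 for all endosperm peaks, and 34 of them (6.16%) reached a diffScore of 100 against 18.6% of all endosperm peaks of the 10 chromosomes. All of them lack an overlapping embryo peak by definition, whereas the set of all endosperm peaks includes overlapping ones. Endosperm peaks without embryo overlap outside these gaps were not set beside them, so the lower strength is not shown to belong to the gaps.

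The strongest endosperm peak inside an embryo gap lay on chromosome 5 from 161044238 to 161044916, with a diffScore of 229.3. It shared an embryo gap of 42563 bp, from 161011499 to 161054061, with 3 other endosperm peaks, so endosperm had 4 peaks where embryo had none. On chromosome 1 an endosperm peak with a diffScore of 201.0 lay from 160661466 to 160661795 in an embryo gap of 46663 bp. These peaks were chosen after their values were seen.

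The endosperm list, which has fewer peaks, had 13617 gaps of at least 40000 bp, 11.9% of its intervals. The formula gave 256.3 gaps for the 1353 of the embryo list and 11979 for the 13617 of the endosperm list. Embryo intervals averaged 5534 bp and endosperm intervals 17714 bp, so 40000 bp is a different multiple of it in each list, and the ratios of observed to formula numbers are not comparable between the tissues. All 1067 long gaps lie inside a gap of each tissue by construction. The endosperm gap around a long gap had a median of 73350 bp and reached 272647 bp, and the embryo gap around it had a median of 46613 bp. Limits were the same in the embryo list for 825 of the long gaps and in the endosperm list for 16, so embryo peaks set most limits. The embryo list is also the larger, with 351748 peaks against 114577. The same share over all intervals was not computed, so this is not a trait of the long gaps.

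The regions that border the long gaps were of the same kinds as peak regions elsewhere. Of 2134 border regions, counted once for each gap, 1528 (71.6%, 69.7 to 73.5) held an embryo peak alone, against 70.7% of all regions. Regions with overlapping peaks of both tissues made up 452 (21.2%, 19.5 to 23.0) against 21.6%, and endosperm peaks alone 154 (7.22%, 6.19 to 8.39) against 7.76%. With the 10 parts of the chromosome weighted as the gaps lie, the shares of all regions were 70.4, 22.0 and 7.59%. Each of the 3 shares among border regions has an interval that holds the share among all regions. At 543 gaps both sides were embryo peaks alone, at 44 both sides held both tissues, and at 6 both sides were endosperm peaks alone. The same counts over all intervals were not computed, so these numbers show no trait of the long gaps.

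The strength of the border peaks was also close to that of other peaks. The 1980 embryo border peaks had a median diffScore of 86.2 (83.5 to 89.1) against 87.8 for all embryo peaks, and 809 of them (40.9%, 38.7 to 43.0) reached 100 against 41.4% of all. The 627 endosperm border peaks had a median of 66.4 (63.6 to 69.1) against 67.3, and 108 (17.2%, 14.5 to 20.4) reached 100 against 18.6%. Neither tissue therefore showed a difference in strength beyond counting error.

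Border peaks were shorter. Embryo border peaks had a median length of 239 bp (234 to 243) against 272 bp for all embryo peaks, and endosperm border peaks 182 bp (177 to 188) against 212 bp. The difference was present at each level of strength in embryo: 185 against 212 bp at a diffScore from 50 to 75, 239 against 260 bp from 75 to 100, 295.5 against 331 bp from 100 to 200, and 423 against 509 bp at 200 or more. In endosperm the medians were 164 against 184 bp, 216.5 against 239 bp and 266 against 309 bp in the first 3 of these classes. At a diffScore of 200 or more only 19 endosperm peaks border a gap, and their median of 460 bp (395 to 632) could not be told from the 521 bp of all. In each of the 10 parts of the chromosome the median border peak was shorter than the median peak, in both tissues.

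The length of the border regions changed gradually with the interval they border and not only at the long gaps. The median region was 275 bp beside intervals under 1 kb and 277 bp beside intervals of 1 to 5 kb. It was 257 bp at 5 to 10 kb, 247 bp at 10 to 20 kb, 239 bp at 20 to 40 kb, 234.5 bp at 40 to 60 kb and 233.5 bp at 60 kb or more. The share of regions with both tissues was highest beside the shortest intervals, 23.4% (23.3 to 23.6), and lay between 20.3% and 21.2% in the 4 classes from 1 to 40 kb. Beside gaps of 40 to 60 kb it was 21.5% (19.7 to 23.4). Beside the 109 gaps of 60 kb or more, embryo peaks alone made up 77.1% (71.0 to 82.1) and endosperm peaks alone 4.59% (2.51 to 8.24), from 218 border regions. The interval for embryo peaks alone lies just above the 70.7% of all regions, and that for endosperm peaks alone holds their 7.76%. This is 1 of several length classes looked at.

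**Figure D5:**
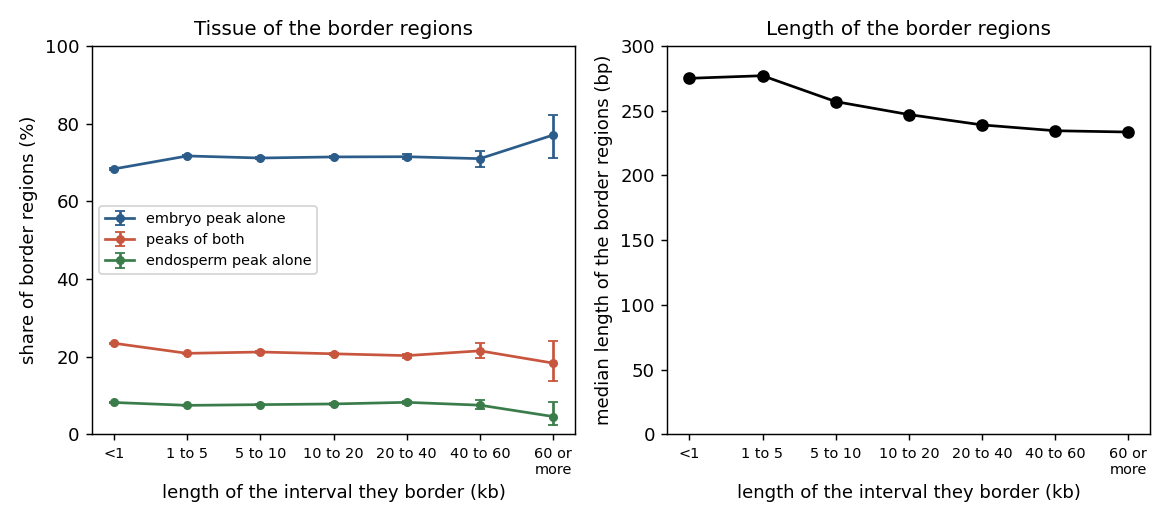
Left: share of border regions in percent (y axis) that hold an embryo peak alone, peaks of both tissues or an endosperm peak alone, by the length of the interval they border in kb (x axis), with 95% Wilson intervals. Right: median length of the border regions in bp. Embryo peaks alone make up 68.3% beside intervals under 1 kb, 71.0% at 40 to 60 kb and 77.1% at 60 kb or more, and the median length falls to 233.5 bp beside the longest gaps, against 275 bp beside the shortest intervals.

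Some long gaps began right beside very strong peaks. On chromosome 3 the gap of 40999 bp from 144755410 to 144796408 followed overlapping peaks with diffScores of 1086 in embryo and 650.1 in endosperm. This is the strongest embryo border peak, and its endosperm partner is the second strongest. The strongest endosperm border peak, with a diffScore of 653.5, covered 1333 bp on chromosome 10 from 64804675 to 64806007, beside the longest gap of that chromosome, and overlapped an embryo peak with a diffScore of 522.0. On chromosome 1, overlapping peaks of 1613 bp in embryo and 1483 bp in endosperm, with diffScores of 720.7 and 539.8, stood at the left edge of the gap from 74707435 to 74752030. On chromosome 3 an embryo peak with a diffScore of 760.5 stood at the right edge of the gap from 125687450 to 125734058, over an endosperm peak with 157.4. These 6 peaks lay in 4 regions, each with peaks of both tissues, and the share of such regions among equally strong peaks elsewhere was not computed.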

How the data were processed

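Embryo and endosperm were each measured in 1 MeDIP-seq library. Per the labels and methods, the authors trimmed the reads with fastx, aligned them by Bowtie2 2.0.5 and ran MACS for peaks, and the peak list of each tissue was deposited. It holds the chromosome, start, end and score of each peak. The deposited score is the diffScore, a log-transformed p-value of MACS that is larger for smaller p-values. An input library and the genome build are not given in the sources used here.

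Peaks that overlapped or touched were joined into regions, and the intervals between successive regions were measured. The end of the last peak stood for the chromosome length. Random placement was calculated as the number of intervals times (1 - 40000/free length) to the power of the number of intervals less 1. In windows the exponential form was used. Shares have Wilson and counts exact Poisson intervals, and medians have binomial intervals. The joining was tested on simulated data and against bedtools 2.31.1. The calculations ran in Python 3.11.15 with scipy 1.17.1, numpy 2.4.6 and pandas 2.3.3, and matplotlib 3.10.9 drew the figures.

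The gaps and the comparisons were chosen with earlier results of these data known. Gaps named are the 10 longest, the longest of each chromosome, the 10 longest of the largest group and those just inside and outside the minimum. Border peaks named by rule are those of the 5 longest gaps and the 3 strongest per tissue, with the gaps beside these 3. The gaps lying side by side with their separating peaks, the borders described in the largest group, the other groups, the stretches without gaps and the endosperm peaks inside embryo gaps were chosen after their values were seen. Alternatives were other minimum lengths, a diffScore of at least 100, peaks of at least 200 bp, single tissues, other densities, distances and flanks, and other overlap rules.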

Additional observations from a re-analysis of the deposited data

How the results depend on the processing

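All alternatives were set with the earlier results known. No paired analysis was possible because each tissue has a single library. The number of long gaps, 1067, was 3554, 337 and 109 with a minimum of 30000, 50000 and 60000 bp, 9041 with a diffScore of at least 100, 3235 with peaks of at least 200 bp only, and 13617 for endosperm peaks alone. Fewer peaks give more gaps by construction. With the density by windows of 1 Mb the formula gave 240.8 in place of 151.1. The share of gaps with another within 1 Mb, 73.9%, was 52.7% within 500 kb, 89.5% within 2 Mb, and 96.7% and 35.3% with a minimum of 30000 and 50000 bp. The central part of 5 held 10.6% of the gaps, against 20.4% for the central part of 3. Flanks of 250 kb had 16.9 regions per 100 kb, against 16.5 in flanks of 100 kb. With endosperm peaks of a diffScore of at least 100, 31 embryo gaps held one, against 434. The other 16 alternatives stayed within 1.5 times for counts, or within the counting interval for other values. These include all those for border tissue, border diffScore and border length. The lists hold no reads, so depth in the gaps is unknown.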

Other observations

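Outside chromosomes 1 to 10, the lists hold peaks on unplaced sequence, which they treat as 1 joined sequence, and on the organelles. The unplaced sequence had 1755 regions and 1 interval of at least 40000 bp, from 3667158 to 3765323, of 98166 bp. This would be the third in length among the long gaps of the chromosomes. The longest interval was 34258 bp on the mitochondrion and 21551 bp on the chloroplast, so neither had a long gap. Their last peaks end at 0.568 and 0.139 Mb, and the formula gave 0.294 and 0.0807 long gaps. Having none therefore shows no difference from the chromosomes.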
